A study of Homo sapiens with 6 samples.

Results

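The genes described here encode the subunits of the hypoxia-inducible factors (HIFs) and the enzymes that sense oxygen for them. They were HIF1A, EPAS1, HIF3A, ARNT, ARNT2, EGLN1, EGLN2, EGLN3, HIF1AN and VHL. Every probe set that the array annotation assigned to only 1 of these 10 symbols was taken, which gave 31 probe sets out of 41091 assigned to a single gene. A probe set is a group of short probes that together report 1 transcript or a few. The study compared subcutaneous U87-EV tumours, 1 Affymetrix array per tumour sample. U87 is a widely used cell line from a human glioblastoma, and the labels do not say what EV stands for. The hosts were female BALB/c SCID mice, which lack B and T cells, aged 6 to 8 weeks when they received the cells mixed with Matrigel. The control group (3 arrays) came from mice given saline. The bevacizumab group (3 arrays) came from mice given the antibody as intraperitoneal doses of 10 mg/kg every 3 days. Bevacizumab binds human VEGFA, a growth factor that vessels need. Dosing began at a tumour volume of 150 to 200 mm3 and went on until the diameter reached roughly 15 to 30 mm. There were 5 mice in each group at the outset, and the labels do not say which mouse each array came from. The spread that the p-values rest on is that of the arrays, and part of it may be technical.

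HIFs are transcription factors made of an alpha and a beta subunit. When oxygen is plentiful, the EGLN enzymes hydroxylate prolines of the alpha subunit, and the VHL ubiquitin ligase then marks it for destruction. HIF1AN hydroxylates an asparagine of the alpha subunit, which blocks its binding to coactivators. When oxygen is short, these reactions slow, the alpha subunit accumulates and hypoxia genes are switched on. This control acts on the protein, so RNA levels of the subunits do not report HIF activity. EGLN1 and EGLN3 are themselves known targets of HIF, and HIF1A and EPAS1 are both expressed in glioblastoma.

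Values are log2 expression as deposited, and a difference of 1 is a 2-fold change. Differences are bevacizumab minus control. A probe set was tested if its mean over the 6 arrays was at least 4. On any array 33.4% to 34.3% of probe sets carried the table's minimum, and values there have no order. Of the 31 probe sets 15 were tested, and the other 16 read under 4 on every array. The tested ones covered 7 genes. HIF3A, EGLN2 and VHL had none. An adjusted p under 0.05 with limma (Benjamini-Hochberg over all 18469 probe sets tested) counts as passing. EPAS1, EGLN1 and EGLN3 each had 1 probe set that rose, and no probe set of these genes fell.

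The promoters of the genes with a passing probe set are printed from RefSeq (GRCh38.p14), from 250 bases before to 50 after the start site. They are shown because HIFs bind the core sequence A/GCGTG, and EGLN1 and EGLN3 are HIF targets. The letters ACGTG and GCGTG were searched on both strands, and capitals mark each match as read on the printed strand.
EPAS1 (chr2:46297157-46297456, plus strand): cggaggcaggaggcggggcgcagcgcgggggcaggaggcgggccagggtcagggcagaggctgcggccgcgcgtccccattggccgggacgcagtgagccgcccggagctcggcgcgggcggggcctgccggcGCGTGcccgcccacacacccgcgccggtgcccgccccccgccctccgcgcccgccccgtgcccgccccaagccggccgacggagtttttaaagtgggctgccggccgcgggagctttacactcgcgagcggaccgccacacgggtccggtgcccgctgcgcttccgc
EGLN1 (chr1:231422238-231422537, minus strand): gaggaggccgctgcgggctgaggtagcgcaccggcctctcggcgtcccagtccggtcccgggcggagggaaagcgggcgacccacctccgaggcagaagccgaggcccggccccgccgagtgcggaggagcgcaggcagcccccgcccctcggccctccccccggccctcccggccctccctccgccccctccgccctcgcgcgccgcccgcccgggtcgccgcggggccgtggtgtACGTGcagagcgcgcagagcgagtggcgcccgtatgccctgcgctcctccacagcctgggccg
EGLN3 (chr14:33951025-33951324, minus strand): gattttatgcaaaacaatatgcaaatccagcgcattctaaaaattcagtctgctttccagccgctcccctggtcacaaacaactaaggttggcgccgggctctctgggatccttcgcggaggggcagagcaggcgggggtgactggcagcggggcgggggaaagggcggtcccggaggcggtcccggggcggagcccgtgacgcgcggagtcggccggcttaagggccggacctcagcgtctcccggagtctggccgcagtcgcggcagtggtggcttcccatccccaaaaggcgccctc
The EGLN1 promoter held 1 ACGTG, starting 13 bases before the start site. The EPAS1 promoter held 1 GCGTG, starting 117 bases before it. No match lay in the EGLN3 window, which says only that these letters are not in these 300 bases. Of all 35116 RefSeq promoters of this length, 48.4% held at least 1 match. Among the 12 promoters that the table gives for 8 of the 10 genes, 5 held one.

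The series as a whole changed in both directions. Over all probe sets 2851 passed, which is 15.4% of those tested, 7.46% being higher after bevacizumab and 7.98% lower. For 39% of the tested probe sets the 2 groups' values were fully separated, and 48.8% had a difference above 0. Against this background 3 of the 15 tested HIF and sensor probe sets passed (20%), 10 of 15 had separated groups (66.7%), and 13 of 15 had a difference above 0. EGLN3 219232_s_at and 222847_s_at had control means under 4 (2.86 and 3.89) and reached the filter only through their bevacizumab arrays. Both are in the last 2 counts, and 219232_s_at is 1 of the 3 that passed. These shares were not tested against the background. Among genes, each read from its brightest probe set, 2 of 7 passed (28.6%) against 19.1% of all 10233 genes. The labelled cell type was checked against 10 markers. The mesenchymal genes VIM and CD44 were bright, at 15.0 to 15.3 and 13.9 to 14.1, while the glial genes GFAP, S100B, OLIG2 and AQP4 were under 4 on all 6. SOX2 was dim too, at 2.82 to 3.58 in controls and 3.61 to 4.30 after bevacizumab, and was not tested. Of the same list NES fell by 1.18, and CHI3L1 and EGFR rose by 1.60 and 1.22 (limma adjusted p = 0.00725, 0.0174 and 0.00767). The summed linear signal of the 10 was 53500 to 55400 in controls and 60300 to 66700 after bevacizumab, and its part in the values below was not tested. As a sign of RNA quality, the 3' control probe set of ACTB minus its 5' one, in log2, averaged 1.38 ± 0.26 over controls and 1.81 ± 0.16 over bevacizumab arrays (SD, n = 3 each; difference 0.43, two-sided exact permutation p = 0.2, smallest possible 0.1). For GAPDH the same measure averaged -0.12 ± 0.02 and -0.02 ± 0.03, with no overlap (exact permutation p = 0.1).

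HIF1A, the widely expressed alpha subunit of HIF-1, had 1 probe set, which was bright on every array. It read 13.53, 13.72 and 13.79 on controls 1, 2 and 3 and 14.05, 13.96 and 13.94 on bevacizumab 1, 2 and 3. All 3 bevacizumab arrays were above all 3 controls, by a small margin. The difference was 0.30 (SE 0.10, 95% interval 0.06 to 0.55), or 1.23-fold, and did not pass (limma adjusted p = 0.0968). With a variance trend on intensity in the fit it did pass (adjusted p = 0.0491).

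EPAS1, the alpha subunit of HIF-2, rose clearly. It is best known in endothelium, kidney and glioma stem-like cells. The bright probe set 200878_at read 10.22, 10.36 and 10.48 on controls 1, 2 and 3 and 11.93, 11.74 and 11.88 on bevacizumab 1, 2 and 3. The groups lay far apart compared with their spread, with means of 10.35 ± 0.13 and 11.85 ± 0.10 (SD, n = 3 each). This is a difference of 1.49 (SE 0.11, 95% interval 1.23 to 1.76), or 2.82-fold, and it passed with a limma adjusted p of 0.00267. Omitting any one array kept the call, with differences of 1.43 to 1.56. With the ACTB 3' to 5' difference as a covariate it was 1.34, with an SE of 0.16, and did not pass (adjusted p = 0.0753). The other EPAS1 probe sets were dim. 200879_s_at read 3.08 to 3.32 in controls and 3.45 to 3.98 after bevacizumab, and 241055_at was at the lowest value on every array.

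The change of EPAS1 exceeded that of its paralogue HIF1A. Their 95% intervals did not overlap. Taken array by array, the log2 value of EPAS1 minus that of HIF1A was between -3.36 and -3.30 in controls and between -2.22 and -2.06 after bevacizumab. The change of this difference was 1.19 (two-sided exact permutation p = 0.1, the smallest that 3 against 3 arrays can give). The comparison was chosen after the values were seen.

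Since EPAS1 is a well known endothelial gene, endothelial markers were read on the same arrays. Of 10, 8 were under 4 on every array, among them CDH5, VWF, KDR, TIE1 and CLDN5. The others, PECAM1 and TEK, differed by 0.18 and -0.03 (limma adjusted p = 0.298 and 0.917). The summed linear signal of all 10 was 168 to 180 on control arrays and 172 to 205 on bevacizumab arrays. The array carries probes for human RNA, whereas the host's vessels are of mouse origin. Some pericyte and smooth muscle markers did move: RGS5, ACTA2 and TAGLN fell, 3 of 7 tested of 8 listed, and DES was under 4 on every array. PDGFRB, CSPG4 and MCAM differed by 0.30, 0.16 and 0.42 and NOTCH3 by -0.51, and none of them passed. The summed signal of all 8 was 8970 to 11300 in controls and 3660 to 4320 after bevacizumab, and its part in the EPAS1 value was not tested. The brightest of them was ACTA2, with means of 12.76 in controls and 10.97 after bevacizumab. Of 7 macrophage markers with a probe set 6 were under 4 on all arrays, none of the red blood cell markers was bright enough to test, and none of 6 fibroblast markers passed. Whether the pericyte, smooth muscle and fibroblast marker signals came from the human tumour cells or from mouse RNA was not tested. In bulk tumour, fewer cells of a type and less RNA per cell cannot be told apart.

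HIF3A, the third alpha subunit, which has splice forms that restrain the other two, had 7 probe sets and none bright enough to test. Probe set 1555318_at read 2.26, 2.31 and 2.23 on controls 1, 2 and 3 and 3.56, 3.40 and 2.80 on bevacizumab 1, 2 and 3. Its groups did not overlap, but every value was under 4, so no fold is given. In a fit with no filter its adjusted p was 0.151 (limma). The other 6 probe sets of HIF3A stayed between 2.23 and 2.77 on every array.

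**Figure D1:**
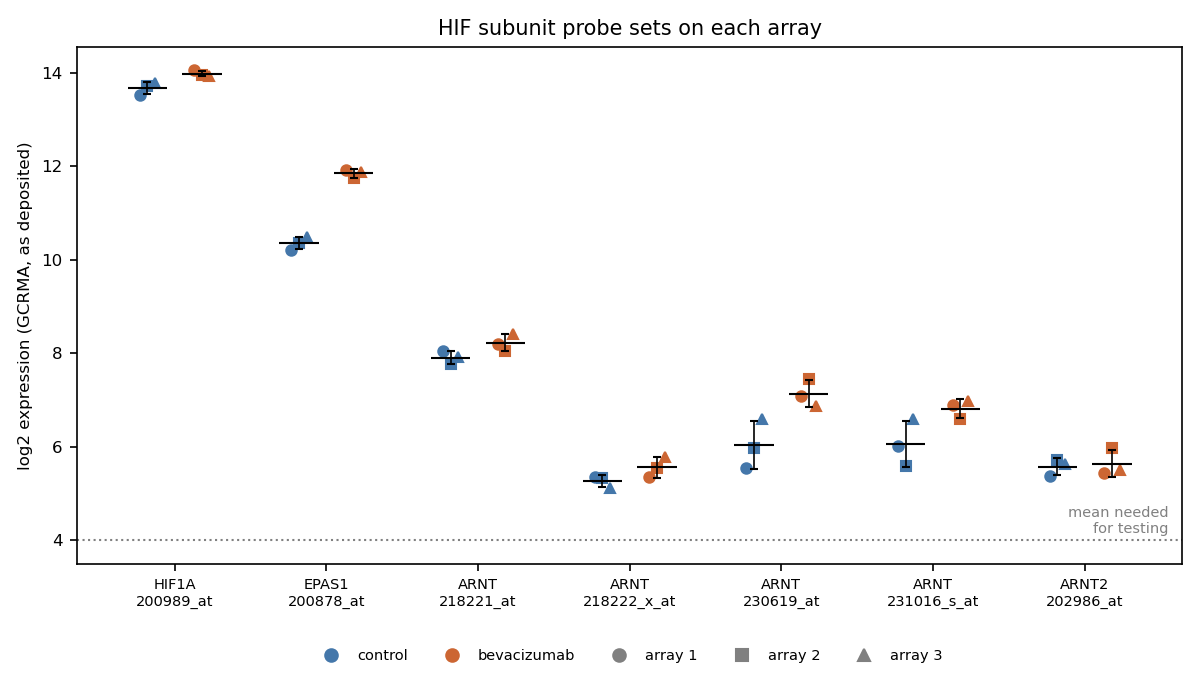
Log2 expression (vertical axis, GCRMA values as deposited) of the tested HIF1A, EPAS1, ARNT and ARNT2 probe sets, with points for the 3 control arrays and 3 bevacizumab arrays, horizontal lines for means and bars for 1 SD. EPAS1 shows a clear gap between 10.48, its highest control, and 11.74, its lowest bevacizumab array; levels of different probe sets cannot be set against each other.

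ARNT, the constitutive beta subunit that pairs with every HIF alpha protein, had 7 probe sets, of which 4 were tested. All 4 had higher means after bevacizumab, and none passed. The brightest, 218221_at, differed by 0.32 (SE 0.13, limma adjusted p = 0.156). Its controls were 8.04, 7.76 and 7.92 and its bevacizumab arrays 8.21, 8.05 and 8.42, so the groups were separated by only 0.01. Probe set 218222_x_at differed by 0.29 and its groups met at the same value of 5.35 on control 1 and bevacizumab 1.

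The other ARNT probe sets showed larger differences and a wider spread. Probe set 230619_at read 5.55, 5.97 and 6.58 in controls and 7.08, 7.45 and 6.88 after bevacizumab. Its difference was 1.10 (SE 0.29) and its limma adjusted p 0.055, just short of the threshold. It passed when arrays were rescaled (adjusted p = 0.0328 with centring, 0.0288 with quantile normalization), with a filter at 6 (0.0344) and without control 3 (0.0416), and with the ACTB covariate the difference shrank to 0.35. Probe set 231016_s_at differed by 0.75 (adjusted p = 0.109), and its groups met at 6.58. When the 4 probe sets were averaged into 1 value for the gene, the ARNT difference was 0.62 and passed (adjusted p = 0.0229), whereas the brightest probe set alone did not (0.138 among genes). The remaining 3 ARNT probe sets were under 4, and 2 of them, 233714_at and 233724_at, sat at the lowest value.

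ARNT2, a beta subunit found mainly in brain and kidney, gave no sign of a difference beyond its spread. Its probe set read 5.37, 5.71 and 5.64 on controls 1, 2 and 3 and 5.44, 5.98 and 5.50 on bevacizumab 1, 2 and 3, and the groups overlapped. The difference was 0.07 with a 95% interval of -0.37 to 0.51 (limma adjusted p = 0.815). Its sign turned without control 1 (-0.03), without bevacizumab 2 (-0.10) and with the ACTB covariate (-0.10).

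Among the sensors, EGLN1 (PHD2), the main HIF prolyl hydroxylase, rose. Its bright probe set 223046_at read 10.60, 10.62 and 10.72 on controls 1, 2 and 3 and 11.42, 11.64 and 11.55 on bevacizumab 1, 2 and 3. The groups were separated by 0.70 and each spanned less than that. The means were 10.65 ± 0.06 and 11.54 ± 0.11 (SD, n = 3 each), a difference of 0.89 (SE 0.10, 95% interval 0.66 to 1.13) or 1.86-fold (limma adjusted p = 0.00648). It kept its call when any array was omitted (0.84 to 0.95). With the ACTB covariate it was 0.85, with an SE of 0.16, and did not pass (adjusted p = 0.0919).

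Both other tested EGLN1 probe sets ran the same way without passing. Probe set 224314_s_at read 6.77, 6.93 and 7.33 in controls and 7.43, 7.82 and 8.05 after bevacizumab, a difference of 0.76 (SE 0.22, limma adjusted p = 0.067). For 221497_x_at the controls were 8.06, 8.46 and 8.71 and the bevacizumab arrays lay closely around 8.95 ± 0.04 (SD, n = 3), a difference of 0.54 (adjusted p = 0.0897). The difference of 221497_x_at was 0.14 with the ACTB covariate, where that of 224314_s_at was 0.62. It was 0.36 for 221497_x_at on leaving out control 1. On both the groups did not overlap, and the controls spread more widely than on 223046_at. The remaining EGLN1 probe set, 223045_at, read 2.23 to 2.33 and was not tested. So 1 of the 4 EGLN1 probe sets passed, and the differences of the 3 bright ones were all above 0.

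EGLN3 (PHD3), the prolyl hydroxylase gene known to respond most strongly to hypoxia in many cells, was dim in controls and higher after bevacizumab. Probe set 219232_s_at read 2.48, 3.04 and 3.07 on controls 1, 2 and 3 and 5.80, 5.03 and 5.92 on bevacizumab 1, 2 and 3. All controls were under 4, so only a bound is given: the bevacizumab mean of 5.58 ± 0.48 (SD, n = 3) is at least 2.99-fold above 4. The fitted difference passed with a limma adjusted p of 0.00631. It reached the filter only through the bevacizumab arrays, and in the fit with no filter its adjusted p was 0.0513. With values under 4 set to 4 the difference was 1.58 and passed (adjusted p = 0.0132). With the ACTB covariate it did not pass either (adjusted p = 0.0919).

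The other EGLN3 probe set, 222847_s_at, read 3.34, 4.25 and 4.08 in controls and 5.11, 4.65 and 4.57 after bevacizumab. Its groups did not overlap, with a difference of 0.89 (SE 0.28, limma adjusted p = 0.0834). The control mean of 3.89 was under 4, so it too reached the filter only through the bevacizumab arrays. With values under 4 set to 4 the difference was 0.67 and passed (limma adjusted p = 0.0475). This probe set is brighter on average by a small margin (4.33 against 4.22), so it stands for EGLN3 when genes are read from their brightest probe set, and the gene then does not pass (adjusted p = 0.07). Whether EGLN3 is called thus depends on the probe set read and on how values under 4 are treated.

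EGLN2 (PHD1), the prolyl hydroxylase not known as a HIF target, had 1 probe set of its own, 227147_s_at, and it sat at the lowest value on all 6 arrays. Probe set 220956_s_at is assigned both to EGLN2 and to its readthrough transcript RAB4B-EGLN2, and so falls outside the rule. It read 7.03, 7.03 and 6.95 in controls and 7.03, 7.13 and 7.08 after bevacizumab. Its groups met at 7.03, and the means were 7.01 and 7.08. That value of 7.03 was the same on controls 1 and 2 and bevacizumab 1, and whether it is a measured level was not tested.

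HIF1AN (factor inhibiting HIF, FIH), the asparaginyl hydroxylase, had 3 probe sets that did not run in the same direction, and none passed. Probe set 226648_at read 6.59, 6.34 and 6.39 in controls and 6.71, 7.08 and 6.87 after bevacizumab, a difference of 0.44 (SE 0.13, limma adjusted p = 0.0749). Its groups did not overlap. The brightest probe set, 59999_at, read 7.40, 7.34 and 7.57 in controls and 7.32, 7.50 and 6.90 after bevacizumab, a difference of -0.20 with a 95% interval of -0.62 to 0.22 (adjusted p = 0.454). That value was -0.03 without bevacizumab 3, -0.13 without control 3, -0.33 without bevacizumab 2 and -0.51 with the ACTB covariate. The third, 218525_s_at, differed by -0.27 (adjusted p = 0.323), by -0.09 without control 3 and by -0.58 with the covariate. It lay near 4, with 4.13 on controls 1 and 2 and on bevacizumab 2.

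VHL, the substrate-recognising subunit of the ubiquitin ligase, had 2 probe sets. 203844_at was at the lowest value on every array, and 1559227_s_at read 2.27 to 2.34. These arrays therefore give no level of VHL RNA in either group.

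**Figure D2:**
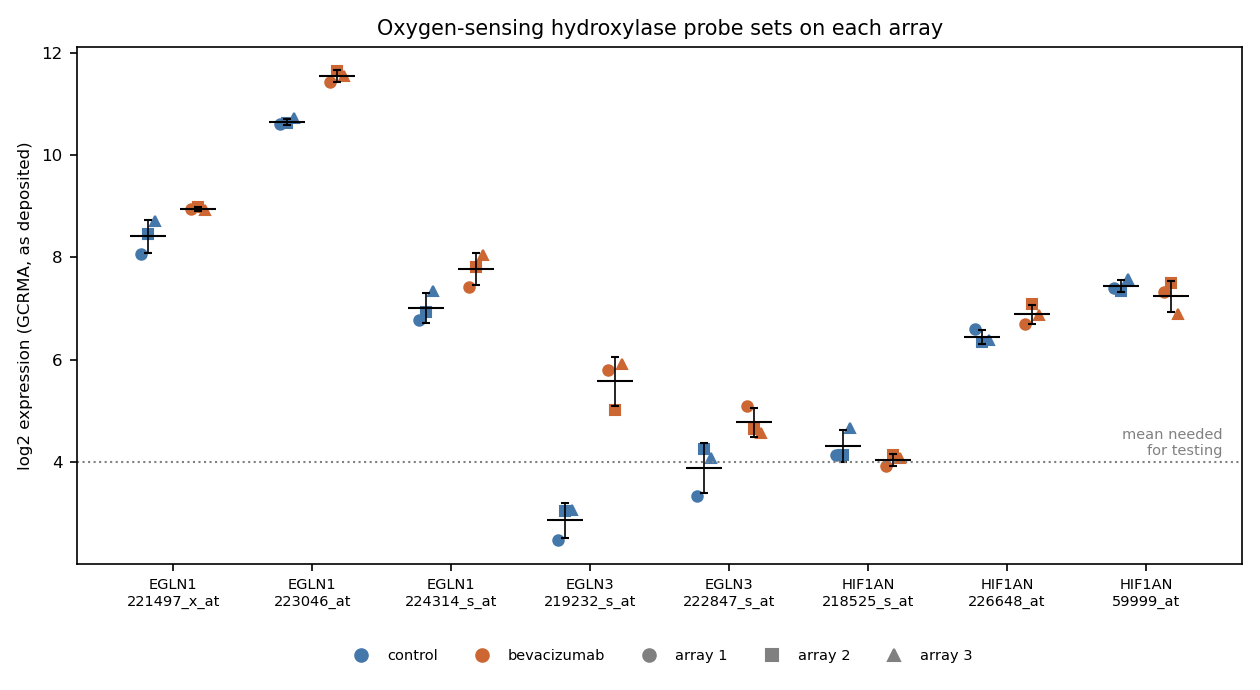
Log2 expression (vertical axis, GCRMA values as deposited) of the tested EGLN1, EGLN3 and HIF1AN probe sets, with points for the 3 control arrays and 3 bevacizumab arrays, horizontal lines for means and bars for 1 SD. All 3 controls of EGLN3 219232_s_at are under the dotted line at 4, and the bevacizumab arrays lie between 5.03 and 5.92.

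**Figure D3:**
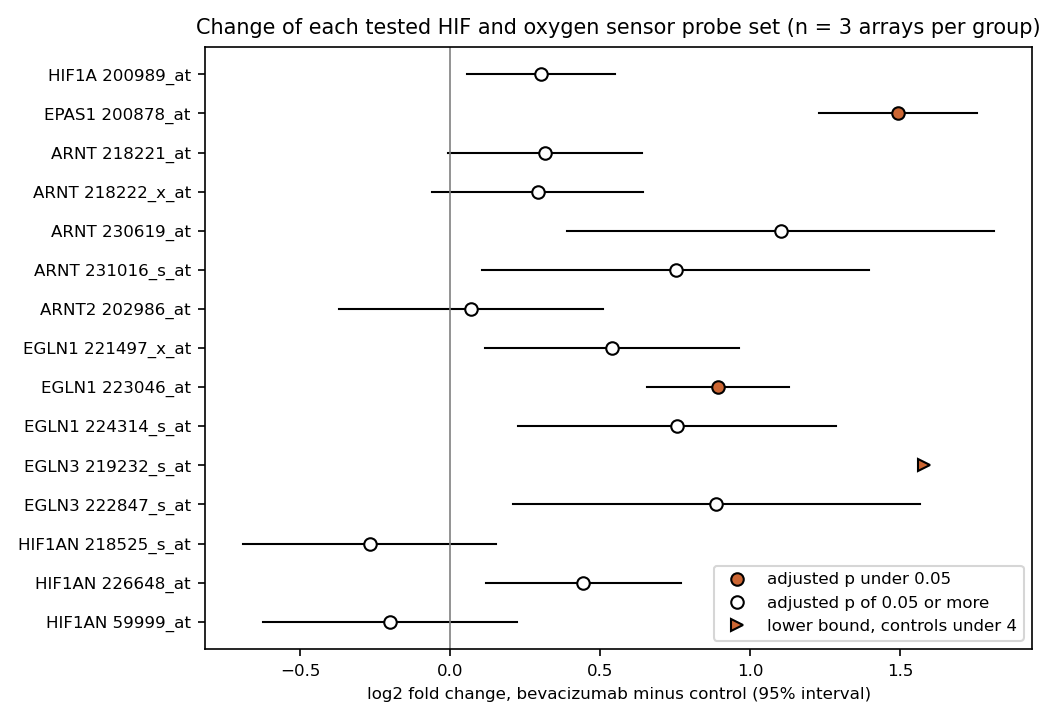
Log2 fold change (horizontal axis, bevacizumab minus control) of each tested probe set with its 95% interval from limma; filled symbols have an adjusted p under 0.05, and the triangle is a lower bound with no interval. The filled symbols are EPAS1 200878_at at 1.49, EGLN1 223046_at at 0.89 and EGLN3 219232_s_at, drawn at its bound of 2.99-fold because all its controls were under 4.

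Probe sets of the same gene were then compared directly. For each array the log2 value of the gene's brightest probe set was subtracted from that of each other tested probe set, and the change of this difference was tested with limma over 8236 such pairs of all genes. Over all pairs 0.461% passed, and 28.5% had separated groups. Of the 8 pairs in ARNT, EGLN1, EGLN3 and HIF1AN, 1 passed and 2 had separated groups. It was the EGLN3 pair (limma adjusted p = 0.0497). Since all controls of 219232_s_at were under 4, the size of this change was not measured and the call rests on control values not above the filter. With values under 4 set to 4 the change was 0.91 and did not pass (adjusted p = 0.101), and the call was lost in each of the 6 fits without an array. Over all alternatives its adjusted p ran from 0.0455 to 0.356.

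The HIF1AN pair of 226648_at and 59999_at came next, with a change of 0.65 (SE 0.19, limma adjusted p = 0.116). Its per-array differences ran from -1.19 to -0.81 in controls and were -0.61, -0.41 and -0.03 after bevacizumab, so the groups did not overlap. For ARNT, 230619_at changed by 0.78 more than 218221_at (adjusted p = 0.236), and 231016_s_at by 0.43 more (adjusted p = 0.3). The EGLN1 probe sets 221497_x_at and 224314_s_at changed by -0.35 and -0.13 relative to 223046_at (adjusted p = 0.259 and 0.699). In these pairs a difference between probe sets was not shown, nor was its absence.

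The other genes of the pathway were read from 7 lists, each gene by its brightest probe set, with the 10 genes above left out. The background among genes is 9.09% higher and 9.97% lower, with a median difference of -0.01 over all 10233 genes. Of 14 listed partners of VHL 9 were tested, of which 3 fell, none rose and 6 did not pass. All 9 had differences under 0 (-0.48 to -0.11, median -0.29), as had 51.6% of all genes tested. RBX1, the RING subunit that recruits the ubiquitin-conjugating enzyme, fell by 0.48 (SE 0.09, limma adjusted p = 0.0178). ELOB, the elongin that binds VHL, fell by 0.38 (adjusted p = 0.0231). The chaperonin subunit gene CCT2 fell by 0.36 (adjusted p = 0.0396). Without control 1, 2 or 3 none of the 9 passed, and without bevacizumab 2 only RBX1 did. CCT2 lost its call in each of the 6 fits without an array, and with no filter (adjusted p = 0.0692).

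Among 19 tested regulators of HIF alpha stability 3 rose and 1 fell, with a median of 0.01. SIAH2, a ubiquitin ligase that targets EGLN enzymes, rose by 1.19 (SE 0.21, limma adjusted p = 0.0162). OS9, whose protein was reported to bind HIF1A and EGLN enzymes, rose by 0.58 (adjusted p = 0.0141), and the deubiquitinase gene UCHL1 by 0.92 (adjusted p = 0.0229). The gene that fell was AJUBA (-0.97, adjusted p = 0.0495), an adaptor for EGLN and VHL, picked out once its value was known. Omitting 1 array gave 0 to 4 genes higher, with 0 without control 1 and 1 without control 2, control 3 or bevacizumab 2; AJUBA kept its call only without bevacizumab 2.

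Of 12 tested coactivators and their competitors 1 rose and none fell (median -0.06). The gene was ETS1, a transcription factor that cooperates with HIF-2, with a difference of 0.89 (SE 0.22, limma adjusted p = 0.0403); it passed in 2 of the 6 fits without an array. The coactivator genes EP300 and CREBBP differed by 0.23 and -0.25 (adjusted p = 0.395 and 0.482), and are named after their values were seen. Among bHLH-PAS genes, the family to which the HIF subunits belong, 5 of 11 with a probe set were tested. NPAS2, a clock transcription factor, rose by 1.03 (SE 0.14, adjusted p = 0.00884) and the other 4 did not pass. With no filter NPAS2 did not pass (adjusted p = 0.051).

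Other oxygen or 2-oxoglutarate dependent enzymes included 4 that rose and 1 that fell of 12 tested (median 0.25). KDM3A, a histone demethylase gene induced by HIF, rose from 8.94 ± 0.28 to 10.46 ± 0.13 (SD, n = 3 each), by 1.52 (SE 0.16, limma adjusted p = 0.00476). The collagen prolyl hydroxylase genes P4HA1 and P4HA2 rose by 1.02 and 0.75 (adjusted p = 0.00717 and 0.00924). KDM4B rose by 1.22, and ADO, a thiol dioxygenase that acts as a separate oxygen sensor, fell by 0.45 (adjusted p = 0.0107 and 0.0225), both named after their values were seen. ADO lost its call without control 1, 2 or 3.

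Known HIF target genes differed in how many moved. The lists were chosen with results of these arrays known, so their direction is not independent evidence. Of 16 tested targets reported for HIF-1, 14 rose and none fell, with a median of 1.80. NDRG1 rose by 3.22 (SE 0.22, limma adjusted p = 0.00184), the hexokinase gene HK2 by 2.68 and the ankyrin repeat gene ANKRD37 by 2.27. LDHA and ENO1, named after their values were seen, did not pass (both 0.18). Of 9 tested targets reported for HIF-2, 3 rose and 1 fell, with a median of 0.43. VEGFA rose by 1.40 (SE 0.17, adjusted p = 0.00609) and the iron importer gene SLC11A2 by 0.75 (adjusted p = 0.00701). ANGPT2, a vessel-destabilising ligand, was at least 2.41-fold lower, since all its bevacizumab arrays were under 4 (adjusted p = 0.00243). The third that rose was TGFA, a ligand of the EGF receptor, by 1.91 (adjusted p = 0.00865, named after its value was seen). The lists were not tested against each other. Each target gene was placed under only 1 HIF, which does not exclude the other, so these counts do not tell HIF-1 from HIF-2. Some of the 7 lists share genes. KDM3A and P4HA1 count both as oxygen-dependent enzymes and as HIF-1 targets, and CITED2 both among the coactivators and competitors and as a HIF-2 target. With no filter, 10 of the HIF-1 targets and 2 of the HIF-2 targets rose. With the ACTB covariate no gene of the 7 lists passed; the medians were then 1.52 for HIF-1 targets and 0.32 for HIF-2 targets.

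**Figure D4:**
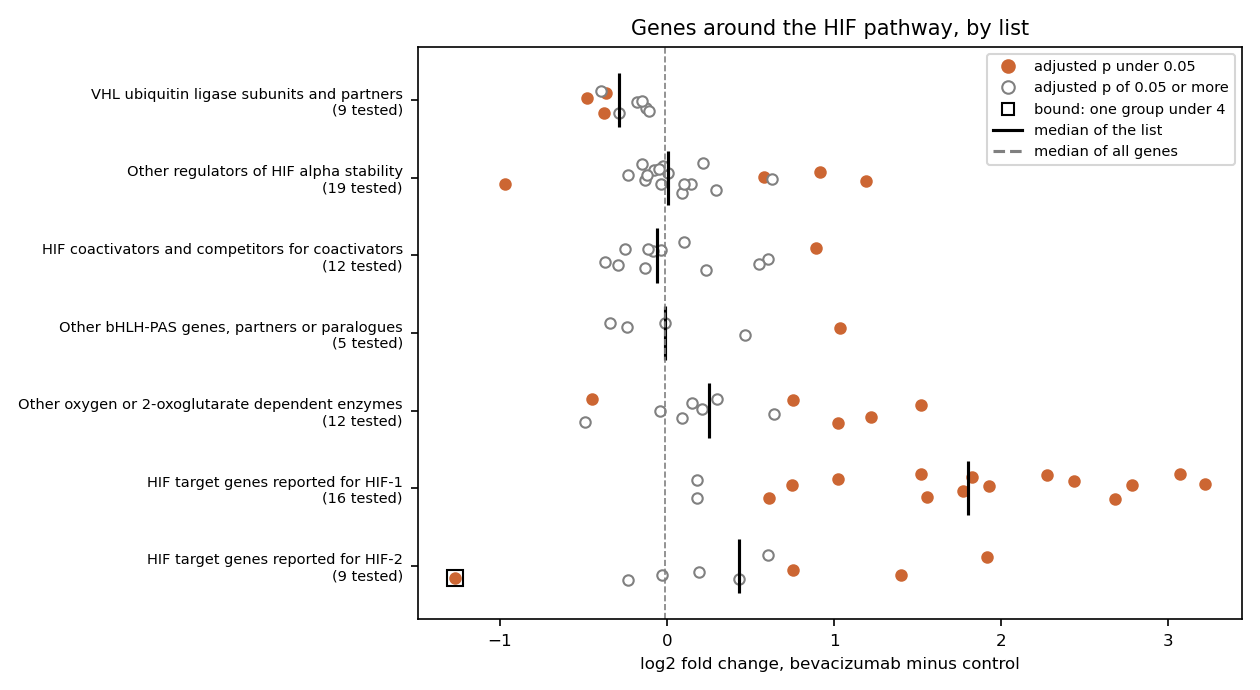
Log2 fold change (horizontal axis, bevacizumab minus control) of each tested gene in the 7 pathway lists; filled points have an adjusted p under 0.05, the square marks a bound (ANGPT2), black lines are list medians and the dashed line is the median of all genes. The 9 VHL partner genes all lie left of 0, and 14 of the 16 HIF-1 targets are filled and right of 0.

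The genes whose pattern over the 6 arrays was most like that of 4 of the genes were found by Pearson correlation among the 10232 other genes tested. The arrays form 2 groups, so any gene that changed cleanly correlates highly, and these values are a description. For EPAS1 the closest were PPP1R3B, ANKRD37 and POFUT4 (r = 0.999 for each), which rose by 2.23, 2.27 and 1.37. For EGLN1 they were SYNPO, MNT and MGARP (r = 0.999, 0.999 and 0.998), which rose by 2.54, 0.40 and 2.45. For HIF1A they were EEA1, SDCBP and EVI2A (r = 0.990, 0.989 and 0.989), and for EGLN3 KATNA1, SAMTOR and LPIN1 (r = 0.979, 0.977 and 0.976). At r of at least 0.95 there were 356 genes for EPAS1, 427 for EGLN1, 70 for HIF1A and 17 for EGLN3.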

How the data were processed

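The deposited table holds log2 expression values for 54675 probe sets of an Affymetrix human array (HG-U133 Plus 2.0). GCRMA, a method that adjusts for probe sequence and gives 1 normalized value per probe set, and GCOS 1.1.1.052 are named in the submitters' processing notes, without their settings. The log2 scale is an inference from the values, which run from 2.23 to 15.99. No scanner files were used. Precision is limited by there being 3 arrays per group. Batches are not given in the sources used here.

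Array controls (62), probe sets with several genes (1801) and probe sets not listed (11721) were left out. Symbols of 41037 probe sets were set by gene identifier from RefSeq. Groups came from the sample titles. Fits used limma 3.58.1 in R 4.3.3 (lmFit, eBayes, two-sided, Benjamini-Hochberg over all features tested, no covariate) on 3 responses: probe sets and genes with a mean of at least 4, and differences between probe sets of a gene. Genes were read from the probe set with the highest mean. A fold is given as a bound against 4 if every array of a group read below it. Marker sums add 2 to the power of each log2 value.

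The 10 genes and all lists were chosen with earlier results of these data known. The naming rule took all 10 genes, up to 3 passing genes per list by smallest p, and the 3 genes most like HIF1A, EPAS1, EGLN1 and EGLN3. On simulated data with 200 of 18469 probe sets changed between bevacizumab and control, the fit recovered 18%, 46%, 78% and 100% of those changed by 0.5, 1, 2 and 4, with 2 false calls among 123. The simulated noise was independent between probe sets, and 15.4% of the real probe sets passed, so these rates may not hold for the real fit. Filters, values under 4 set to 4, scalings, an intensity trend, a replicate block, the ACTB covariate, averaged probe sets and leaving out each array were the alternatives.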

Additional observations from a re-analysis of the deposited data

How the results depend on the processing

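EPAS1 200878_at and EGLN1 223046_at passed under each alternative except the ACTB covariate, and EGLN3 219232_s_at under each except that covariate and the fit with no filter; the filter at 6 left it untested. HIF and sensor probe sets past the threshold numbered 0 with the covariate and 3 to 4 without 1 array; genes numbered 0 with the covariate, 4 with averaged probe sets (1 of them EGLN3, whose average takes in control values under 4) and 2 in each fit without an array. Probe sets past the threshold numbered 611 with no filter, 1041 with the replicate block, 21 with the covariate and 557 (without control 1) to 2781 (without bevacizumab 1). Genes numbered 598, 904, 24 and 558 (without control 2) to 2074. Pairs numbered 202 with no filter, 70 with a filter at 6, 72 with values under 4 set to 4, 24 with the trend, 1 with the block, 0 with the covariate (limma; 38 as reported) and 2 to 32 without an array. Pairs of HIF and sensor genes numbered 2 with no filter, 0 with a filter at 6, values set to 4, quantile normalization, the block, the covariate or any array left out. These pairs with no filter were EGLN1 223045_at and EPAS1 241055_at, whose probe sets were under 4. With no filter more features were tested; the cause was otherwise not tested. In the lists with no filter, VHL partners had 2 genes lower, stability regulators 1 higher, coactivators and bHLH-PAS genes 0, and oxygen-dependent enzymes 3 higher and 1 lower.

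Signs turned for values that had not passed. ARNT2 was -0.10 with the covariate and -0.10 to 0.17 without an array, under 0 without control 1 or bevacizumab 2. Relative to the brightest probe set, ARNT 218222_x_at was 0.13 with the covariate and -0.11 to 0.084 without an array (above 0 without control 2 or bevacizumab 1), ARNT 230619_at and 231016_s_at were -0.12 and -0.072 with the covariate, and HIF1AN 218525_s_at was -0.25 to 0.044 without an array (above 0 without control 3, bevacizumab 1 or bevacizumab 2). The labels do not say that equal replicate numbers mark a shared source, and same-numbered arrays did not deviate together (correlations -0.036, -0.0026 and -0.16). With the replicate block EGLN1 224314_s_at passed (0.76, adjusted p = 0.0472) and 4 HIF and sensor probe sets passed in all, while the EGLN3 pair did not. Scaling moved the median of all genes by under 0.1. The ACTB covariate averaged 1.38 in controls and 1.81 after bevacizumab, so it partly follows treatment. In the fit with it the SEs of EPAS1 200878_at and EGLN1 223046_at rose from 0.11 and 0.10 to 0.16 each. In the calls lost there, RNA quality and lower precision cannot be told apart.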

Other observations

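The controls differed among themselves in a recurrent way. Control 1 alone was the lowest control on 9 of the 15 tested HIF and sensor probe sets, control 2 on 4 and control 3 on 1, and 1 was a tie. Over all tested probe sets control 1 alone was the lowest on 30.4%, control 2 on 44.5% and control 3 on 21.1%. The ACTB 3' to 5' difference was also lowest on control 1 (1.14, against 1.33 and 1.66 on controls 2 and 3), and its part in these values was not tested. Probe sets of 1 gene share arrays and RNA, so the 15 are not independent.

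Several probe sets carry the same value on more than 1 array, and not only dim ones. HIF1AN 218525_s_at reads 4.13 on 3 arrays, and HIF3A 219319_at reads 2.76 on 5. Of brighter ones, 220956_s_at reads 7.03 on controls 1 and 2 and bevacizumab 1. ARNT 231016_s_at reads 6.58 on control 3 and bevacizumab 2, and TEK reads 5.90 on controls 1 and 3 and bevacizumab 2. Whether these repeated values are measured levels was not tested.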
